A study of Mus musculus with 25 samples.

Results

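Glutathione transferases and peroxidases of lung mesenchymal cells were followed through 10 genes chosen by name: Gstp1, Gstm1, Gstm2, Gsta3, Gsta4, Gstt1, Gsto1, Mgst1, Gpx3 and Gclc. These are 10 of the 47729 genes in the bulk count table, and all 10 are also among the 31053 features of the single-cell matrices. They were chosen with earlier results of these data known, so their counts of calls cannot stand for all genes of these families. The level of Gstp1 in the single-cell libraries labelled week 3 was one of the values that led to the choice. That difference is described below without a test. The cells were Lin- lung cells, left after a sort against CD45 (leukocytes), CD31 (endothelium) and CD326 (epithelium). They came from Col1a1-CreERT2;Fas fl/fl mice, in which the Col1a1 promoter drives a tamoxifen-inducible Cre, so that deletion is aimed at collagen I-expressing cells and not at every sorted cell. Naive mice of this line were not injured. Mice called Fas+/+ (WT in the labels) received intratracheal bleomycin, a drug that causes lung fibrosis, and corn oil, and mice called Fas-/- (FasDel in the labels) received bleomycin and tamoxifen, with harvest at week 3 or week 6, so deletion and tamoxifen cannot be told apart. Bulk RNA-seq holds 20 libraries, 4 in each of these 5 groups. For single-cell RNA-seq each condition has 1 library made from 4 pooled mice, 5 in all. The labels give no age or sex and do not say whether the 4 libraries of a group came from separate mice. The paper counts n as individual animals and gives n = 4 for its bulk RNA-seq figure. The p-values here measure the spread between libraries.

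Glutathione is a small cysteine-containing peptide that cells keep at high concentration as a buffer against oxidants and reactive chemicals. Glutathione transferases join it to electrophiles such as lipid aldehydes, glutathione peroxidases use it to reduce hydrogen peroxide and lipid peroxides, and glutamate-cysteine ligase carries out the rate-limiting step of its synthesis. Many of these genes can be induced by the transcription factor NRF2 through a short promoter sequence, the antioxidant response element, and oxidant stress is a known component of bleomycin injury. Of the members, Gstp1 encodes the pi class transferase, Gstm1 and Gstm2 the mu class, Gsta3 and Gsta4 the alpha class, Gstt1 the theta class and Gsto1 the omega class. Mgst1 encodes a transferase of the microsomal and mitochondrial membranes, Gpx3 the secreted glutathione peroxidase of plasma and extracellular fluid, and Gclc the catalytic subunit of glutamate-cysteine ligase.

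The genes lie on 7 chromosomes of GRCm38. Gstp1 (ENSMUSG00000060803, chr19:4035407-4037985, minus strand) lies 2299 bases from its near copy Gstp2. Gstm2 (ENSMUSG00000040562, chr3:107981702-107986453) and Gstm1 (ENSMUSG00000058135, chr3:108012255-108017973) are 25801 bases apart on the minus strand of chromosome 3. The promoters of 3 members are shown because these genes stand for the behaviours found here: Gsta3 fell most at week 3 in Fas+/+ mice, Gstm1 had the highest bulk level of the transferases, and Gstp1 was not called against naive mice. The sequences are from RefSeq (GRCm38.p6), end at the base before the annotated start, and leave out stretches that overlap an annotated exon. Capitals mark a match to the core of the antioxidant response element, TGACNNNGC or its reverse complement GCNNNGTCA.
Gsta3, chr1:21240335-21240584, plus strand: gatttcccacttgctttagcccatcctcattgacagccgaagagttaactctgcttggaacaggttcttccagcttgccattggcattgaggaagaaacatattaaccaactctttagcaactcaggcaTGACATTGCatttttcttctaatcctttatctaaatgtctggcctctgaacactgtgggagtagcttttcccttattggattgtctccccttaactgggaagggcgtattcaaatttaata
Gstm1, chr3:108017974-108018223, minus strand: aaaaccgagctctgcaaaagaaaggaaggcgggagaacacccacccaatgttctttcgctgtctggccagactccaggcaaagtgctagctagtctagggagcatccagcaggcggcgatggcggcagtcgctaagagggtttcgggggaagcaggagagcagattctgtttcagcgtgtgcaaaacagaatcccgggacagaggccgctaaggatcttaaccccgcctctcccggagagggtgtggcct
Gstp1, chr19:4037986-4038162, minus strand: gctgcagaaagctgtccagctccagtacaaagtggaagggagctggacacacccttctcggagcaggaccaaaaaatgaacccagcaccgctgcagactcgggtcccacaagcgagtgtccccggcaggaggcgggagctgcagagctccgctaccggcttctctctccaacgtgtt
In Gsta3, 112 bases lie between the match and the start. No match was found in the windows shown for Gstm1 and Gstp1, which says only that these letters are not in those windows. Promoters were at hand for 8 of the 10 members, and 2 members held a match within 250 bases, Gsta3 and Mgst1, where it lies in a stretch annotated as exon. Of all 32851 promoters searched, 3338 (10.2%) held one.

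Bulk libraries held 11819700 to 25189096 counts. The gene-level counts do not separate the floxed exon of Fas, so they cannot check the deletion: Fas ran from 33.97 to 57.7 CPM (counts scaled to library size) in week 3 Fas+/+ libraries and from 34.41 to 64.87 CPM in week 3 Fas-/- libraries. RNA of cells that the sort should remove was present. All 8 blood endothelial markers, Pecam1 and Cdh5 among them, were detected, and their summed level ran from 153 to 426 CPM in naive, 2216 to 8508 CPM in week 3 Fas+/+ and 671.7 to 7845 CPM in week 3 Fas-/- libraries. Fas+/+ replicate 1 and Fas-/- replicate 4 were highest. These libraries were also lowest in their groups for the collagen I gene Col1a2, at 3142 and 5208 CPM. The others of their groups ran from 9743 to 12310 and from 8642 to 10680 CPM, and naive libraries from 4387 to 7436 CPM. All 8 alveolar epithelial markers were also detected. Their sum ran from 28.39 to 126.2 CPM in naive libraries. At week 3 it was 188.5 to 729 CPM in Fas+/+ and 266.2 to 459.9 CPM in Fas-/- libraries. At week 6 it was 535.9 to 1552 CPM in Fas+/+ and 125 to 396.8 CPM in Fas-/- libraries. Erythroid markers summed to 2979 to 9589 CPM in naive libraries and to 17.07 to 234.8 CPM over the injured groups. The summed level of 9 lipofibroblast markers, among them Tcf21 and Wnt2, fell from a mean of 10480 CPM in naive to 4227 and 6313 CPM in week 3 Fas+/+ and Fas-/- libraries, and 7 mesothelial markers went from 854.4 to 396.4 and 461.3 CPM. Other mesenchymal sums also had lower means in week 3 Fas+/+ and Fas-/- libraries. Vascular smooth muscle markers went from 2765 to 1420 and 1618 CPM, and pericyte markers from 3486 to 2026 and 2087 CPM. Hhip myofibroblast markers went from 1180 to 647.6 and 693.6 CPM, and Col14a1 fibroblast markers from 4634 to 3543 and 3322 CPM. Profibrotic markers had higher means, 23540 to 50840 and 47310 CPM, with overlap. In sorted bulk RNA, fewer cells of a type and less RNA per cell cannot be told apart. Sex-linked RNA differed between libraries. Ddx3y, of the Y chromosome, was at 0.04906 CPM in week 3 Fas+/+ replicate 1 and 50.28 to 59.81 CPM in replicates 2 to 4. Week 3 Fas-/- libraries had 35.41 to 59.73 CPM. Week 6 Fas+/+ libraries had 2.098, 0.08407, 0.09917 and 48.39 CPM, and week 6 Fas-/- libraries 55.45, 7.172, 0.5645 and 51.48 CPM. Naive libraries had 0.04307, 45.08, 5.11 and 49.17 CPM. Some libraries of every group held Ddx3y together with Xist, expressed in females. Xist was at 272 and 309.1 CPM in week 3 Fas-/- replicates 1 and 3, and at 74.24 CPM in week 3 Fas+/+ replicate 2. It was at 119.8 CPM in naive replicate 2 and also in week 6 Fas+/+ replicate 4, and at 142.2 CPM in week 6 Fas-/- replicate 4.

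At the level of RNA per length of annotated exon, Gpx3 was far above the other members. In naive mice its mean was 1840 RPKM (CPM divided by exon length in kilobases). Gstm1 followed at 380 RPKM, then Gstm2 at 122, Gstt1 at 97.1, Gsta3 at 41.8, Gstp1 at 34, Mgst1 at 31.5, Gsta4 at 11.2, Gsto1 at 9.04 and Gclc at 8.02 RPKM. In the lower part of this order the libraries of Gstp1 and Mgst1 overlap, as do those of Gsta4, Gsto1 and Gclc, so these neighbours do not differ beyond their spread. The exon length is that of all annotated exons of a gene together, which can be longer than a transcript, so the order depends on it. In the naive single-cell library Gsta3, at 537 CPM, stood above Gstt1 at 284 and Gstm2 at 227 CPM. The plot of the bulk levels shows each library.

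**Figure D1:**
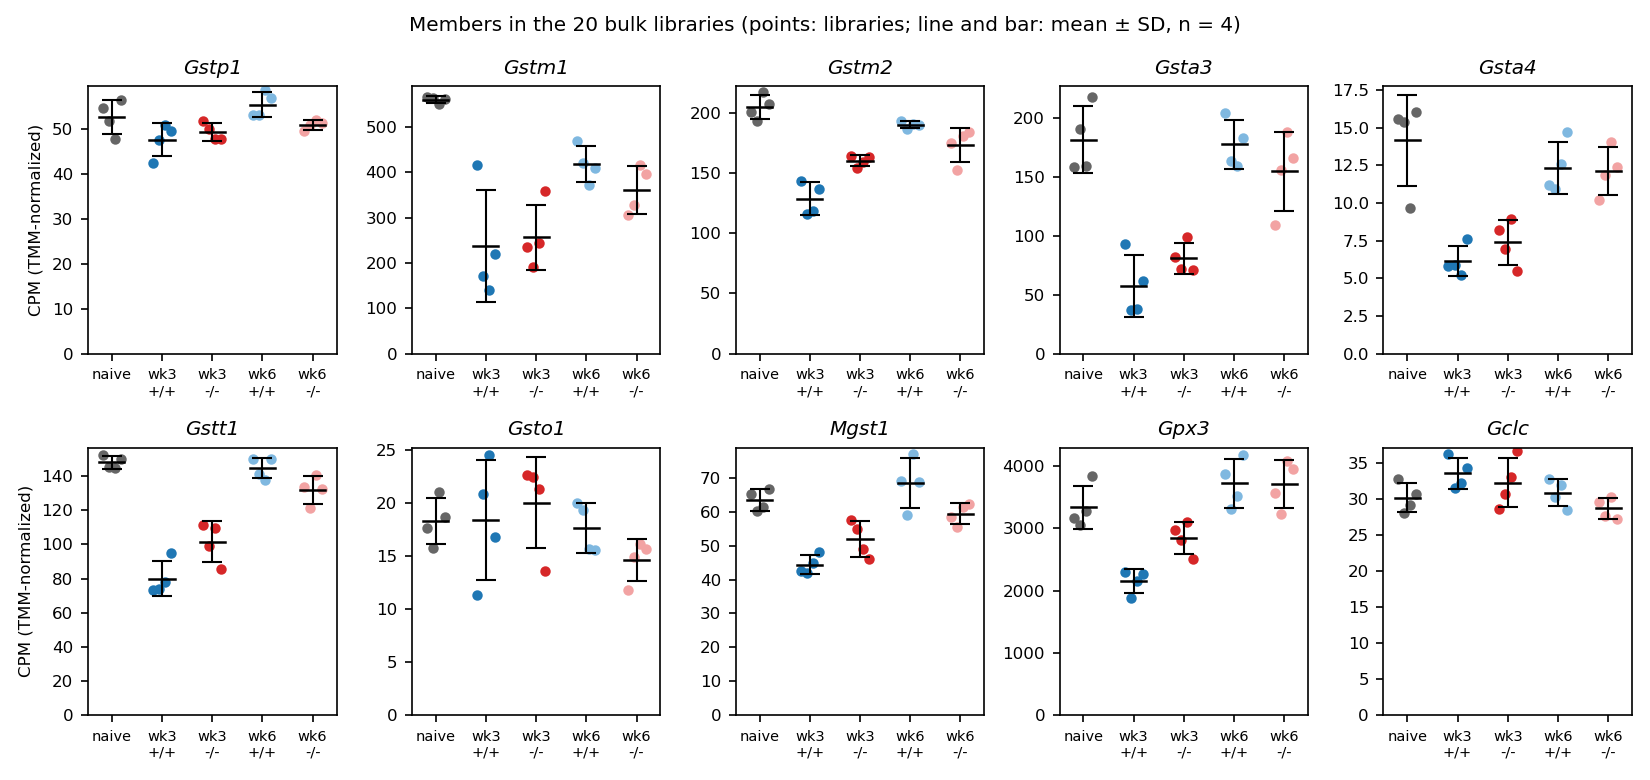
Bulk levels of the 10 genes in CPM, 1 panel per gene, with a point for each of the 4 libraries of a group and a line for the group mean with its SD. The levels of Gstm1, Gsta3, Gsta4, Gstt1 and Gstm2 were low at week 3 and nearer to naive at week 6, whereas Gclc and Gsto1 overlapped naive in all 4 injured groups.

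The first comparison sets mice at week 3 after bleomycin beside naive mice. Injured mice also received corn oil or tamoxifen, and no injection is described for naive mice. The part of these injections in the differences from naive was not tested. In Fas+/+ mice 7 of the 10 members were lower than in naive mice and 0 were higher (edgeR quasi-likelihood test, adjusted p of 0.05 or less). Of all 15773 genes tested, 41.3% were called in this comparison in either direction and 19.2% were lower. The median log2 fold change of the members was -0.65, beside 0.01 over all tested genes. The groups of those 7 genes did not overlap, which 32.2% of all genes share.

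Of the members, Gsta3 of the alpha class had the lowest log2 fold change. Gsta3, whose product is known for conjugating aflatoxin and for a steroid isomerase activity, measured 158.6, 190.8, 158.7 and 217.6 CPM in the naive libraries and 92.88, 37.02, 37.93 and 61.69 CPM at week 3 in Fas+/+ mice. Every injured library was below every naive one. Replicate 1, the library richest in endothelial RNA and lowest in Col1a2, was the highest of the injured. The log2 fold change was -1.66 ± 0.242 (SE, adjusted p = 5.79e-05, edgeR). Gsta4, specialised for 4-hydroxynonenal, an aldehyde of lipid peroxidation, went from 14.15 ± 3.012 to 6.144 ± 1.019 CPM (SD, n = 4), a log2 fold change of -1.20 (edgeR adjusted p = 6.91e-05).

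The mu and theta classes were lower as well. Gstm1 stood at 565.6, 563.6, 549.8 and 562.6 CPM in naive libraries and at 415, 171.8, 141.1 and 220.2 CPM in week 3 Fas+/+ libraries. Replicate 1 was again the outlying high value among the injured, though still below the naive libraries. The log2 fold change was -1.24 ± 0.251 (SE, edgeR adjusted p = 0.000911), and it was -1.66 without that library. Gstm2 went from 205.1 ± 10.12 to 129 ± 13.8 CPM (log2 fold change -0.67, edgeR adjusted p = 4.1e-06). Gstt1, which handles small halogenated compounds and peroxides, went from 148.3 ± 3.808 to 79.95 ± 10.11 CPM (log2 fold change -0.89, edgeR adjusted p = 1.57e-06).

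The extracellular and membrane enzymes moved less. Gpx3 measured 3173, 3053, 3278 and 3838 CPM in naive and 2300, 1882, 2159 and 2273 CPM in week 3 Fas+/+ libraries, with no overlap. Its log2 fold change was -0.63 ± 0.111 (SE, edgeR adjusted p = 0.00029). Mgst1 went from 63.45 ± 3.138 to 44.36 ± 2.786 CPM (log2 fold change -0.52, edgeR adjusted p = 0.000131).

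The remaining members were not called. Gstp1 measured 54.57, 51.71, 47.71 and 56.31 CPM in naive and 42.49, 47.58, 50.88 and 49.52 CPM in week 3 Fas+/+ libraries, and these groups overlap. Its log2 fold change was -0.14, with a 95% interval from -0.27 to -0.02 and an edgeR adjusted p of 0.08, and the gene was called lower (edgeR adjusted p = 0.0308) when naive replicate 3 was left out. Gclc had a log2 fold change of 0.16 (edgeR adjusted p = 0.121) and Gsto1 of 0.00, with an interval from -0.39 to 0.40. With the mean log2 level of the epithelial markers added to the model, 4 members were called, and Gsta4 (-0.83), Mgst1 (-0.20) and Gpx3 (-0.40) were not. Gpx3 was also not called with the blood endothelial markers added. The alveolar epithelial sums of naive and week 3 libraries did not overlap, so the epithelial covariate and injury cannot be fully told apart. The share of all genes called in these fits is not given here.

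In Fas-/- mice at week 3, 6 of the 10 members were lower than in naive mice and 0 higher, against 32% of all genes called and 14.8% lower. Members had a median log2 fold change of -0.32, beside 0.02 over all genes. Gsta3 measured 81.52, 71.96, 99.24 and 70.78 CPM, all below the naive libraries (log2 fold change -1.17 ± 0.239 SE, edgeR adjusted p = 0.00158). Gstm1 measured 234.7, 189.8, 242.9 and 358.6 CPM, with the highest value in replicate 4, which also had the most endothelial RNA of its group (log2 fold change -1.13 ± 0.25 SE, edgeR adjusted p = 0.00283). The other 4 called members were Gsta4 at a log2 fold change of -0.94, Gstt1 at -0.54, Gstm2 at -0.35 and Mgst1 at -0.29 (edgeR adjusted p from 0.000248 to 0.013). The 6 called members had no overlap with naive, as 31.1% of all genes did. Gpx3 measured 2979, 2805, 3101 and 2504 CPM, which overlaps naive, and was not called (log2 fold change -0.23, edgeR adjusted p = 0.122). With the epithelial markers added to the model 2 of these were called, Gstm1 and Gsta3, while the log2 fold changes of the others were -0.62 for Gsta4, -0.42 for Gstt1, -0.40 for Gstm2 (edgeR adjusted p = 0.0527) and -0.01 for Mgst1. Mgst1 was also not called with the blood endothelial markers added. For these fits too the share of all genes called is not given here. Both comparisons at week 3 share the naive libraries, so their likeness is no independent repeat.

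**Figure D2:**
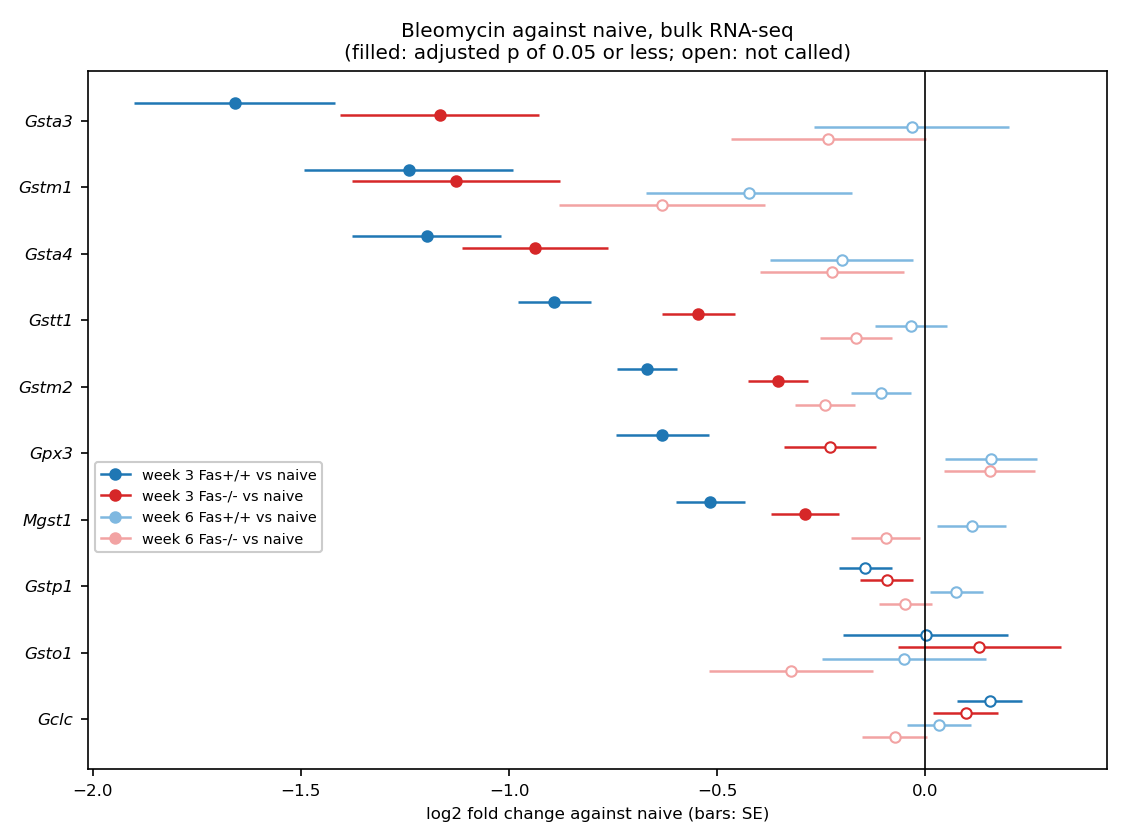
Log2 fold change of each gene against naive mice (horizontal axis, bars: SE) for both genotypes and both weeks. Filled points have an edgeR adjusted p of 0.05 or less; at week 3 Gsta3 reached -1.66 in Fas+/+ and -1.17 in Fas-/- mice, and all week 6 points are open.

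In the study's model, fibrosis resolves by week 6 in Fas+/+ mice and persists in Fas-/- mice. At week 6, 0 of the 10 members were called against naive mice in either genotype by edgeR, where 5.31% of all genes were called in Fas+/+ and 6.48% in Fas-/- mice. At an unadjusted p under 0.05 the count was 0 in Fas+/+ and 2 in Fas-/- mice (Gstm1 and Gstm2), beside 19.5% and 21% of all genes. DESeq2 called 0 and 1 members, beside 7.74% and 8.31% of the genes it tested. Gstm1 measured 468.9, 421.4, 371.8 and 408.8 CPM in Fas+/+ and 305.3, 328, 416.1 and 396.2 CPM in Fas-/- libraries. All 8 values were below the lowest naive value of 549.8 CPM, with log2 fold changes of -0.42 and -0.63 (edgeR adjusted p = 0.371 and 0.144), a separation that 16.6% and 16.1% of all genes show in the respective comparison. Gstm2 in Fas-/- mice, at 175.6, 153.2, 181.4 and 184.8 CPM, was likewise below all naive libraries (log2 fold change -0.24, edgeR adjusted p = 0.0554), and it was called under RLE normalization, with a replicate block and by DESeq2. In Fas+/+ mice Gstm2 measured 193.8, 187.2, 190.9 and 190.6 CPM, which also did not overlap naive, though the nearest libraries were the same to the digits printed (log2 fold change -0.11, edgeR adjusted p = 0.458). Gstt1 was the third member whose week 6 Fas-/- libraries lay apart from naive.

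Gpx3 and Gsta3 were near naive at week 6. Gpx3 measured 3876, 3304, 3519 and 4184 CPM in Fas+/+ and 3574, 3237, 4081 and 3959 CPM in Fas-/- libraries, and both groups overlap naive. Gsta3 had group means of 177.4 ± 20.58 and 154.5 ± 33.36 CPM, beside 181.5 ± 28.46 in naive mice. Gstp1 had means of 55.37 ± 2.856 and 50.87 ± 1.043 CPM.

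From week 3 to week 6 in Fas+/+ mice, 8 of the 10 members rose, where 22.9% of all genes were called and 12% were higher. Gsta3 rose by a log2 fold change of 1.63 (edgeR adjusted p = 0.000266), Gsta4 by 1.00, Gstt1 by 0.86, Gstm1 by 0.82, Gpx3 by 0.79, Mgst1 by 0.63, Gstm2 by 0.56 and Gstp1 by 0.22 (edgeR adjusted p = 0.0201 for Gstp1). Gclc and Gsto1 were not called. Week 3 Fas+/+ libraries were mostly high and week 6 Fas+/+ libraries mostly low in Ddx3y, and the count was 8 with Ddx3y as a covariate. The count was 6 when only the groups compared were fitted, without Gstp1 and Gstm1, and 7 without Gstp1 when no filter on low counts was used or the blood endothelial markers were added. Leaving out 1 library lost the call of Gstp1 or Gstm1 for 6 of the 8 libraries. Of the 8 genes, 7 had groups that did not overlap, as 23.5% of all genes did, and Gstm1 overlapped through Fas+/+ replicate 1 of week 3. In Fas-/- mice 4 members rose over the same weeks, Gsta3 at 0.93, Gsta4 at 0.71, Gstt1 at 0.38 and Gpx3 at 0.38 (edgeR adjusted p from 0.0137 to 0.0386), where 9.02% of all genes were called and 4.48% were higher. These 4 genes had groups that did not overlap, as 17.4% of all genes did. The count of 4 was 0 without week 6 Fas-/- replicate 3, 1 without week 3 Fas-/- replicate 2, and 2 without week 3 or week 6 Fas-/- replicate 4. The mean lipofibroblast marker sum went from 4227 to 8048 CPM over these weeks in Fas+/+ and from 6313 to 8443 CPM in Fas-/- libraries. Mesothelial sums went from 396.4 to 776.1 and from 461.3 to 897.9 CPM. Profibrotic sums fell, from 50840 to 21410 and from 47310 to 29810 CPM. The part of cell mixture in the rises was not tested. The same week 3 libraries gave the falls against naive, so the rises are no separate result.

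Between genotypes 0 of the 10 members were called at either week by edgeR, beside 0.171% of all genes at week 3 and 0.0507% at week 6. At an unadjusted p under 0.05 the count was 4 at week 3 (Gstm2, Gstt1, Mgst1 and Gpx3), where 8.62% of all genes passed, and 1 at week 6 (Mgst1), where 8.07% did. At week 3 the fold change of Fas-/- over Fas+/+ was positive for 9 of the 10 members, with a median of 0.24, and Gclc was the exception at -0.06. Gstm2 measured 144, 115.8, 118.9 and 137.4 CPM in Fas+/+ and 164.4, 154.6, 159.4 and 163.6 CPM in Fas-/- libraries. These groups do not overlap, and neither do those of Gpx3, a separation that 3.92% of all genes show. Their log2 fold changes were 0.31 for Gstm2 (95% interval 0.17 to 0.46, edgeR adjusted p = 0.084) and 0.40 for Gpx3 (0.18 to 0.62, edgeR adjusted p = 0.171), and the exact permutation p of each was 0.0286, the smallest that 4 against 4 libraries allow. DESeq2 called 3 members at week 3, Gstm2, Gstt1 and Gpx3, beside 0.956% of the genes it tested, and 0 at week 6, beside 0.943%. By edgeR 3 were also called without week 3 Fas-/- replicate 4, 1 without Fas+/+ replicate 1 and 1 without Fas+/+ replicate 4. Without both libraries richest in endothelial RNA, an alternative added after seeing the data, 4 were called (Gstm2, Gsta3, Gstt1 and Gpx3). The share of all genes called with libraries left out is not given here, so these counts cannot be judged against the 0.171%.

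At week 6 the fold change of Fas-/- over Fas+/+ had a median of -0.13 over the members. It was negative for 10 of the 10, but Gpx3 was at 0 to the digits printed here and turned positive under 4 of 16 alternatives, and Gsta4, at -0.02, under 2. Gstp1 measured 52.99, 53.01, 58.71 and 56.8 CPM in Fas+/+ and 49.44, 50.92, 51.93 and 51.19 CPM in Fas-/- libraries. All Fas-/- values were lower, by a log2 fold change of -0.12 (95% interval -0.25 to 0.01, edgeR adjusted p = 0.693), and Gstp1 and Gstm2 were the members whose groups did not overlap, beside 6.81% of all genes. The change of the genotype difference from week 3 to week 6 was called for 0 of the 10 members by edgeR (0.00634% of all genes). Its log2 value was negative for all 10, with a median of -0.40, and was -0.45 for Gstm2 (edgeR adjusted p = 0.159) and -0.48 for Gstt1 (edgeR adjusted p = 0.225). At an unadjusted p under 0.05 the count was 4, where 7.67% of all genes passed. DESeq2 called 2 members, beside 0.657% of the genes it tested. Without week 3 Fas+/+ replicate 1 edgeR called 1, for which the share of all genes is not given here.

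The wider pathway held calls in both directions. Of 72 other genes of glutathione and redox metabolism, in 7 lists, 64 were tested, and at week 3 in Fas+/+ mice 14 were higher and 15 lower than naive, beside 22.1% and 19.2% of all genes. In Fas-/- mice 13 were higher and 13 lower, beside 17.2% and 14.8%. Their median log2 fold changes were -0.04 and -0.05.

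Of 8 genes for synthesis and cysteine supply, 4 were higher and 2 lower at week 3 in each genotype. Slc7a11, the cystine importer, was at 0.02995 CPM in naive mice and rose to 1.61 ± 1.459 CPM (Fas+/+) or 0.6363 ± 0.4365 CPM (Fas-/-) at week 3 (edgeR adjusted p = 0.000915 and 0.0111). All of these are low levels. The lowest week 3 Fas-/- library, at 0.05096 CPM, lay below the highest naive library, at 0.1198 CPM. Slc3a2, the partner of Slc7a11, had log2 fold changes of 1.11 and 0.84, and Gss, glutathione synthetase, of 0.52 and 0.55. Cbs, of the route from homocysteine to cysteine, was lower at -1.80 and -1.52. Chac1, which cleaves glutathione inside cells, was higher at 1.77 and 1.43, and the surface dipeptidase Dpep1 was lower in Fas+/+ mice at -1.23. Dpep1 was at 709.8 ± 110.9 CPM in naive and 464 ± 67.17 CPM in week 3 Fas-/- libraries.

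Targets of NRF2 went both ways. The list of 11 genes also holds Keap1 and Nfe2l2, the gene of NRF2 itself. In each genotype 4 were higher, 2 lower and 5 not called, Nqo1 and Srxn1 among the last. Hmox1, heme oxygenase, was at 9.172 ± 0.3976 CPM in naive mice and 25.56 ± 10.78 and 23.02 ± 3.619 CPM at week 3 in Fas+/+ and Fas-/- mice. Txnrd1, Prdx1 and Txn1 of the thioredoxin system were higher by log2 fold changes of 0.42 to 0.58, and Osgin1 and Aox1 were lower by -0.84 to -1.24.

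Of the other transferases 14 were tested, of which 1 was higher and 4 were lower at week 3 in Fas+/+ mice and 1 was higher and 2 were lower in Fas-/- mice. Gstk1, the mitochondrial kappa class enzyme, was lower at log2 fold changes of -1.28 in Fas+/+ and -0.93 in Fas-/- mice. Mgst2 was the one that rose, from 0.1364 CPM to 1.274 and 0.7465 CPM, all of them low levels. Of 7 other glutathione peroxidases 4 were tested at week 3. In Fas+/+ mice 1 was lower and 0 were higher than naive, and in Fas-/- mice 0 were called. Their median log2 fold changes were -0.06 and -0.03, so the fall of Gpx3 does not stand for the peroxidases as a group. Sod3, the extracellular superoxide dismutase, went from 2197 ± 89.09 to 1252 ± 104.6 CPM in Fas+/+ mice. It was at 1645 ± 269.2 CPM in Fas-/- mice at week 3. At week 6, 1 pathway gene was higher and 1 lower in Fas+/+ mice, 2 were higher and 4 lower in Fas-/- mice, where 5.31% and 6.48% of all genes were called, and 0 were called between genotypes at either week by edgeR.

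Across the 20 bulk libraries the genes most like a member differed between members. By Pearson r of log2 CPM, given as a description since libraries share group and cell mixture, Gstm1 was most like the pseudogene Gstm2-ps1 (0.982), Gpd1l (0.97) and Aldh2 (0.969). Gstm2-ps1 holds 71 of the 1482 stretches of 90 bases in Gstm1 transcripts, so reads of the 2 genes may be split. Gsta3 was most like Upk1b (0.974), a mesothelial marker, Il11ra1 (0.973) and Ang (0.97). Gpx3 was most like Adarb1 (0.942), Gaa (0.942) and Tmem119 (0.934), Gstp1 like Fads1 (0.853), C1rl (0.813) and Fabp3 (0.805), and Gclc like Riok1 (0.794), Mitd1 (0.79) and Gnl2 (0.789). Among the members themselves, Gsta4 with Gstt1 (0.928) and Gstt1 with Mgst1 (0.92) were close.

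In the single-cell data 2 features of the libraries come before the levels. First, for nearly all members and pathway genes compared here, levels over whole single-cell libraries ordered the weeks opposite to bulk. Of the members and pathway genes called between week 6 and week 3 in bulk, 30 of 30 in Fas+/+ and 12 of 13 in Fas-/- mice went the other way between the single-cell libraries labelled week 6 and week 3, the exception being Gstcd. For the members this was 8 of 8 and 4 of 4. How many of all genes called in bulk went the other way was not counted. Some ratios were small beside their 95% counting intervals. These were -0.07 to 0.01 for Gpx4 and -0.55 to 0.01 for Gstm7 in Fas+/+. In Fas-/- they were -0.28 to 0.17 for Oplah and -0.43 to 0.28 for Gstcd. Gsta3 had a log2 fold change of 1.63 in bulk and a log2 ratio of -1.39 in single cells (95% counting interval -1.43 to -1.34), and Hmox1 of -1.17 and 1.40. The sum of 9 profibrotic fibroblast markers, Cthrc1 and Spp1 among them, was 5980 and 8270 CPM in the libraries labelled week 3 Fas+/+ and Fas-/- and 15600 and 21800 CPM in those labelled week 6, whereas in bulk it averaged 50840 and 47310 CPM at week 3 and 21410 and 29810 CPM at week 6. The mix of cells differed as well: blood endothelial-like cells were 6.94% and 27.3% of the libraries labelled week 3 and week 6 Fas+/+, and 5.98% and 6.15% of the Fas-/- libraries. Lipofibroblast-like cells were 24.6% and 13% in Fas+/+, and 25.1% and 21.3% in Fas-/- libraries. The labels are used as deposited and each single-cell library is named as labelled, but the week of each is uncertain, and whether week labels were exchanged was not tested.

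**Figure D3:**
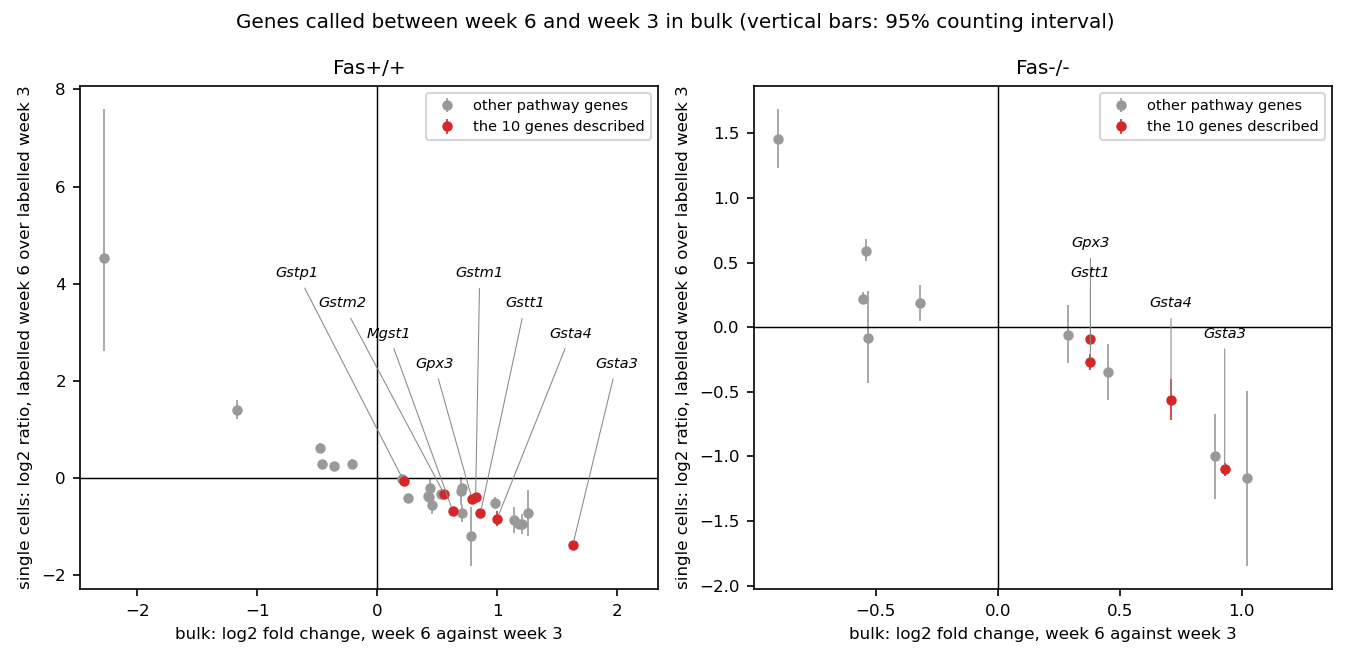
Log2 fold change from week 3 to week 6 in bulk (horizontal axis) against the log2 ratio of the single-cell libraries labelled week 6 and week 3 (vertical axis, bars: 95% counting interval), for genes called in bulk. In the Fas+/+ panel 30 of 30 genes lie in the upper left or lower right quadrant, and in the Fas-/- panel 12 of 13.

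Second, libraries shared cell barcodes. Of 766 naive barcodes, 378 (49.3%) were also present in another library, and among the 603 naive cells kept 350 (58%) were shared, with a median of 11972 UMIs. In the other libraries 6.08% to 14.8% of cells kept were shared, with medians of 758 to 1133 UMIs. The cause was not tested, and naive levels without shared barcodes are given beside those of all kept cells. With 1 library per condition no test between conditions was possible, and intervals cover counting error only.

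UMIs count molecules and need no correction for length, and by summed UMIs Gpx3 was the highest of the members in every library. It stood at 2090 CPM in the naive library (2700 without shared barcodes), 1780 and 1710 CPM in those labelled week 3 Fas+/+ and Fas-/-, and 1320 and 1600 CPM in those labelled week 6. Gsta3 stood at 537, 444, 423, 170 and 197 CPM in the same order, Gstm1 at 835, 524, 441, 400 and 311 CPM, and Gstt1 at 284, 233, 214, 140 and 178 CPM. Without shared barcodes the naive levels were 481, 827 and 269 CPM. For each of these genes the libraries labelled week 6 were below those labelled week 3 of the same genotype. Gclc stood at 21.4 to 26.1 CPM and Gsto1 at 17.1 to 24.1 CPM over the libraries, with 27.6 and 13.8 CPM in the naive library without shared barcodes. Gsta4 was the gene most affected by shared barcodes, at 40.8 CPM in the naive library and 23 CPM without them.

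Cells were clustered without the members, the pathway genes or sex-linked genes among the features, and 18 of 23 clusters were named from marker genes. The largest cluster (1380 cells), led by Clec11a, Tmem35a and Mmp3, was left unnamed. Of the lipofibroblast-like clusters, one was led by Saa3 and Lcn2, acute-phase genes. Levels in these classes are given as the mean CPM of the libraries with at least 20 cells of the class, which are 2 to 5 libraries, so that differences between libraries enter these means.

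Gpx3 was highest in lipofibroblast-like cells, at 3940 CPM, followed among named mesenchymal classes by profibrotic fibroblast-like (1410) and pericyte-like (1090) cells, with unnamed cells at 1650 CPM, and was at 166 CPM in mesothelial-like cells. Gsta3 and Gsta4 were instead highest in mesothelial-like cells, at 1190 and 163 CPM. Lipofibroblast-like cells had 674 and 28.5 CPM, erythroid-like cells 296 and 37.1 CPM, and vascular smooth muscle-like cells had 10.3 and 1.88 CPM. Mgst1 had its highest level in the same class, 522 CPM in mesothelial-like and 422 in lipofibroblast-like cells, while blood endothelial-like cells had 27 CPM.

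The mu class had a wider distribution. Gstm1 was at 723 CPM in Col14a1 fibroblast-like, 615 in lipofibroblast-like, 594 in vascular smooth muscle-like and 537 in blood endothelial-like cells, and at 150 CPM in profibrotic fibroblast-like and 80.1 CPM in pericyte-like cells. Gstm2 ran lower in blood endothelial-like cells, at 93 CPM, and was highest in lipofibroblast-like cells at 250 CPM. Gstt1 was at 283 and 273 CPM in mesothelial-like and lipofibroblast-like cells and at 15 CPM in blood endothelial-like cells.

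The members not called against naive mice in bulk had other patterns. Gclc and Gsto1 were highest in alveolar epithelial-like cells, at 136 and 80.8 CPM, and Gclc was between 13.4 and 56.9 CPM in every other class. Gsto1 stood at 28.2 CPM in profibrotic fibroblast-like cells and at 2.17 CPM in pericyte-like cells. As Gstp1 differed between libraries, its classes are compared within 1 library. In that labelled week 3 Fas+/+ it ran from 78.8 CPM in alveolar epithelial-like to 245 CPM in mesothelial-like cells. The same classes were the extremes in that labelled week 6 Fas-/-, at 78.7 and 281 CPM. Elsewhere the extremes were other classes. They were pericyte-like (275 CPM) and Hhip myofibroblast-like (432) in naive, and pericyte-like (12.9) and Col14a1 fibroblast-like (34) in week 3 Fas-/-. In week 6 Fas+/+ they were lymphatic endothelial-like (70) and erythroid-like (345). Erythroid-like cells, whose median UMI count was 0.217 of that of their libraries, had 1210 CPM of Gpx3, and 552 of Gstm1, and the part of RNA from outside the cell in these levels was not tested.

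**Figure D4:**
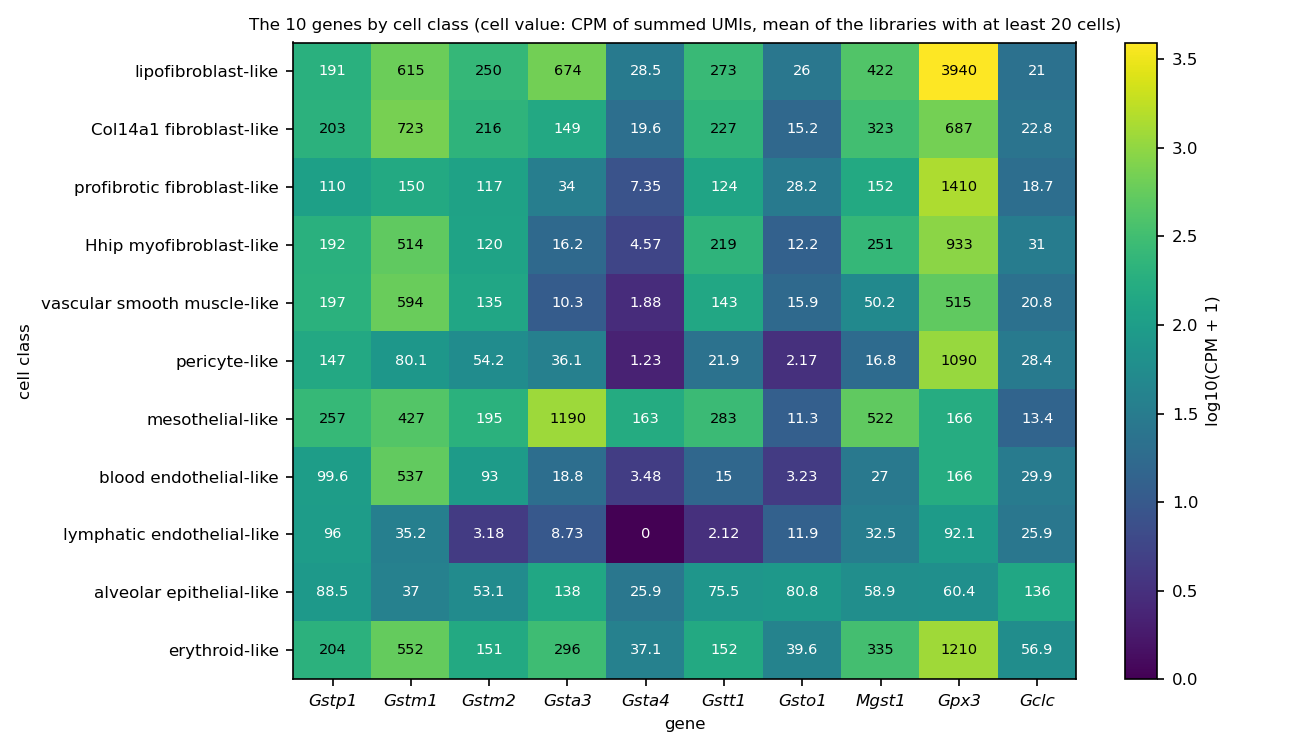
Level of each gene (columns) in each class of cells (rows), as CPM of summed UMIs averaged over the libraries with at least 20 cells of the class; colour is log10(CPM + 1). Gpx3 peaks in lipofibroblast-like cells at 3940 CPM, and Gsta3 and Gsta4 peak in mesothelial-like cells at 1190 and 163 CPM.

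Within classes, Gsta3 was lower in the library labelled week 6 than in that labelled week 3 for 9 of 10 named classes in Fas+/+ (Hhip myofibroblast-like cells were the exception, at 19 and 20.4 CPM) and 9 of 9 in Fas-/- mice. In lipofibroblast-like cells it was at 922 CPM in the naive library, 805 and 707 CPM in those labelled week 3 Fas+/+ and Fas-/-, and 490 and 445 CPM in those labelled week 6. In profibrotic fibroblast-like cells it was at 75.4 and 48.9 CPM in the libraries labelled week 3 and 4.78 and 6.9 CPM in those labelled week 6, all below the 296 CPM of erythroid-like cells. Mgst1 in mesothelial-like cells ran from 448 to 547 CPM over the libraries and showed no such order. Among the 10 named classes in Fas+/+, Gstt1 was lower in the library labelled week 6 in 10 and Gsta4 in 7. Gstm1 and Gstm2 were lower there in 6 each, Mgst1 in 4 and Gstp1 in 3. Gpx3 was lower in the library labelled week 6 in 5 of 10 named classes in Fas+/+ and 3 of 9 in Fas-/- mice, and in lipofibroblast-like cells it was higher there, at 4110 beside 4020 CPM and 3720 beside 3370 CPM, so its order over all cells did not hold within the class richest in it. Gsta4 in mesothelial-like cells ran from 138 to 193 CPM.

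Gstp1 set the libraries labelled week 3 apart. It stood at 385 CPM in the naive library (319 CPM without shared barcodes), at 178 CPM in the library labelled week 3 Fas+/+, 23.9 CPM in that labelled week 3 Fas-/-, and 171 and 142 CPM in those labelled week 6. The library labelled week 3 Fas-/- was the lowest, with 408 UMIs against 4770, a log2 ratio of -2.90 (counting interval -3.04 to -2.75). In bulk the week 3 means were 47.62 ± 3.676 CPM for Fas+/+ and 49.3 ± 1.978 CPM for Fas-/- libraries (SD, n = 4). Those groups overlap, and the log2 fold change was 0.05 with a 95% interval from -0.08 to 0.18. As the rule for choosing the genes used this contrast, it is a description only.

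The low level of Gstp1 ran through the 9 named classes that could be compared. Alveolar epithelial-like and lymphatic endothelial-like cells were under the minimum of 20 cells. The log2 ratio of the libraries labelled week 3 lay between -3.69 in pericyte-like and -1.96 in blood endothelial-like cells, and was -2.92 without shared barcodes. Among 10976 genes with at least 200 UMIs over both libraries, Gstp1 had the lowest ratio but one, after Sftpc, a marker of the alveolar epithelium, with a pseudocount of 10 CPM. Of the 12 lowest, Sftpc, Ager, Cldn18, Aqp5 and Hopx are genes of alveolar epithelium, whose marker sum was 805 CPM in the library labelled Fas+/+ and 192 CPM in that labelled Fas-/-. Cyp2b10, Gprc5a and Rtkn2, also among the 12, were leading genes of the alveolar epithelial-like cluster. Gstp2, the near copy of Gstp1, was among the 12 too, at 17.9 and 1.29 CPM.

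Gstp1 and Gstp2 share sequence at the 3′ end, which the single-cell assay reads. Of the 577 stretches of 90 bases in the last 500 bases of Gstp1 transcripts, 401 (69.5%) occur also in another gene, each of them in Gstp2. Over whole transcripts, which bulk RNA-seq reads, the share was 40.8%. In the last 500 bases the share was 12% for Gstm1, 2.44% for Gstm2 and 0 for the other 7 members. Of the 12 genes highest in the library labelled week 3 Fas-/-, 5 had a share of at least 50% and 10 had some. Among these were the pseudogene Rpl10-ps3 (93.2%) and Rps27rt (89.8%). Of the 12 lowest, 2 had a share of at least 50%, Gstp1 and Gstp2 themselves, and 3 had some, with Saa3 (0.99%). Ccdc85b, also among the 12 lowest, had a share of 0. Its level was 36.7 CPM in the library labelled week 3 Fas+/+ but 5.04 CPM in that labelled week 3 Fas-/-. How many of all genes share such stretches is not given here, so these counts cannot be judged against it. The 5 libraries list the same features. Whether the library labelled week 3 Fas-/- was aligned or counted in another way than the others, and the part that shared sequence has in its Gstp1 level, was not tested.

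**Figure D5:**
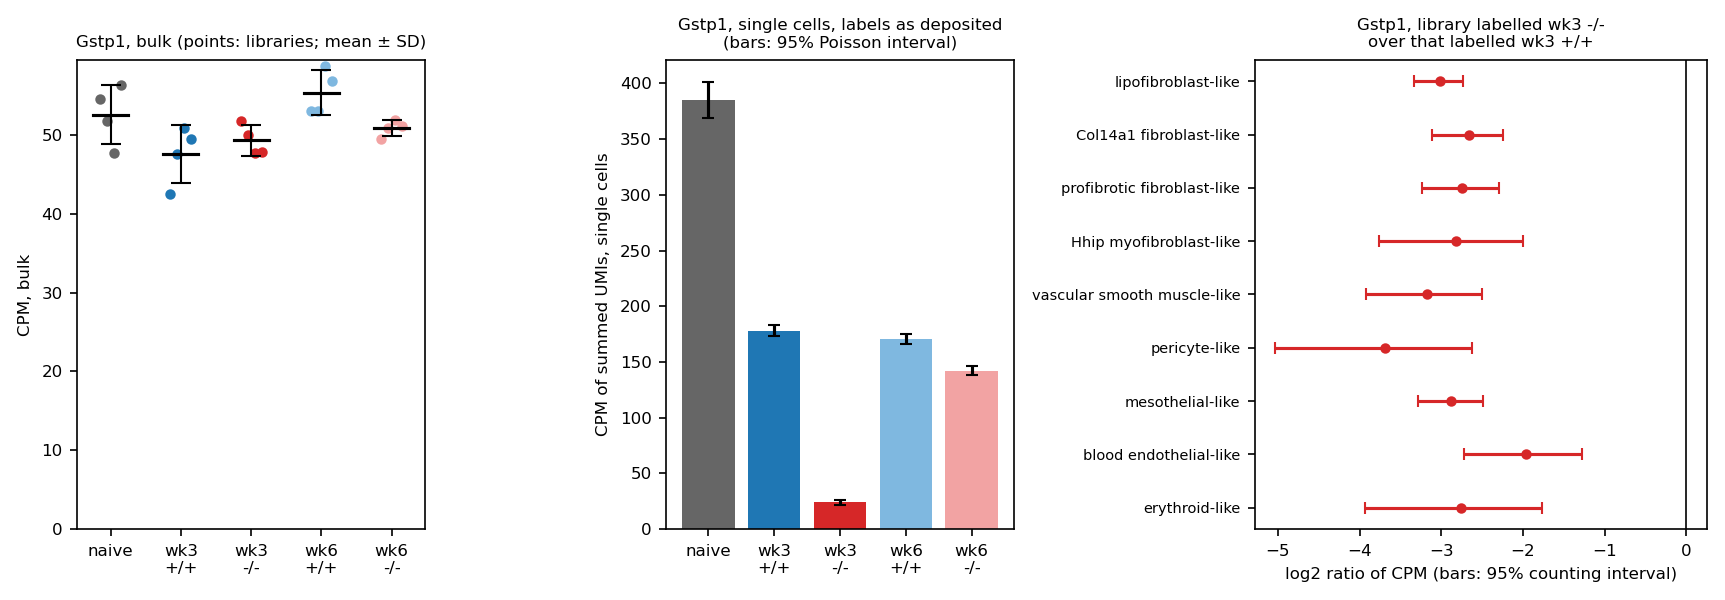
Left, Gstp1 in bulk in CPM, a point per library with group mean and SD; middle, Gstp1 in the 5 single-cell libraries as CPM of summed UMIs with 95% Poisson intervals; right, log2 ratio of the libraries labelled week 3 Fas-/- and Fas+/+ in each class with counting intervals. Bulk means lie between 47.62 and 55.37 CPM, while the library labelled week 3 Fas-/- stands at 23.9 CPM and every class shown is below a ratio of 0.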

How the data were processed

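Lin- lung cells were profiled by bulk RNA-seq (20 libraries) and 10x single-cell RNA-seq (5 libraries). For bulk, the authors deposited raw counts per Ensembl gene, made with htseq-count from HISAT2 alignments to GRCm38 after trimming with skewer. Their normalized table was not used. For single cells the authors deposited Cell Ranger matrices of UMI counts.

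Bulk counts were analysed with edgeR 4.0.16 in R 4.3.3 (filterByExpr with a minimum count of 10, TMM, quasi-likelihood F test on all 5 groups, Benjamini-Hochberg adjustment over 15773 genes, threshold 0.05). The intervals of log2 fold changes are ± 2 SE, about 95%. DESeq2 1.42.0 and other alternatives are given at the end. Exact permutation tests were two-sided. Of 13900 barcodes, 12059 passed the limits of 200 and 7500 genes and of 20% mitochondrial UMIs, and they were clustered with Seurat 5.3.0 and sctransform 0.4.2. A cluster was named where at least 3 markers and a mean log2 difference of 0.5 supported it, unless its 10 leading genes held more markers of another list, or none of its own in cells of very low UMI count. Doublets were not removed. Poisson intervals (scipy 1.17.1) cover counting error only. Scripts for the tests and ratios were tested on simulated data. RPKM used GENCODE vM21 exon lengths.

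The 10 genes, the pathway lists and the markers were chosen with earlier results of these data known. All 10 genes are named. Of the other pathway genes, those called in a comparison with naive mice may be named.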

Additional observations from a re-analysis of the deposited data

Results flagged for a closer look

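Of 50 groups of 4 libraries (10 genes in 5 groups), 2 (4%) held a library far from the other 3 by Dixon's criterion, which chance alone gives in about 1 of 20 groups. Naive replicate 3 was lowest for Gsta4 at 9.647 CPM, where the other naive libraries ran from 15.37 to 16.02 CPM. Week 3 Fas-/- replicate 4 was lowest for Gsto1 at 13.61 CPM, where the others of its group ran from 21.27 to 22.6 CPM. The second library also had the highest sum of blood endothelial markers of its group, 7845 CPM, and in single cells Gsto1 stood at 3.23 CPM in blood endothelial-like cells. The part of endothelial RNA in that value was not tested.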

How the results depend on the processing

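Over 90 member fold changes and 1580 alternative values, 1474 kept their direction and their side of the threshold, 40 uncalled values changed sign without a call, 38 lost a call, 28 gained one, and no called value changed sign. With epithelial markers as a covariate 4 members were called at week 3 in Fas+/+ mice (7 without it), 2 at week 3 in Fas-/- mice (6 without it), and 1 between week 6 and week 3 in Fas-/- mice (4 without it). Against naive mice at week 6 in Fas+/+, 1 member was called (Gstm1) when only the groups compared were fitted. In Fas-/- mice at week 6, 1 was called with RLE normalization, with only the groups compared, with blood endothelial markers as a covariate and by DESeq2. Between genotypes at week 3, DESeq2 called 3. DESeq2 called 2 in the interaction. Without both week 3 libraries richest in endothelial RNA, an alternative added after seeing the data, 4 were called between genotypes at week 3 and 4 in the interaction. The cause of these moves was not tested. Apart from those of DESeq2 above, the shares of all genes called in these fits are not given here. The values given here therefore do not show whether the members lost or gained calls more often than other genes. With Ddx3y as a covariate each count of members called was as without it.

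When each library was left out in turn, the number of members called ran from 0 to 3 between genotypes at week 3, from 0 to 4 between week 6 and week 3 in Fas-/- mice, from 0 to 1 in the interaction, from 7 to 8 at week 3 and between weeks in Fas+/+ mice, and was 6 throughout at week 3 in Fas-/- mice. It was 0 throughout in the other comparisons. The shares of all genes called in these fits are not given here.

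Libraries with the same replicate number did not deviate together on average. The mean correlation of deviations from group means was 0.00755 over 40 same-numbered pairs (-0.464 to 0.403) and 0.00291 over other pairs. No pairing by number was seen, though such a mean cannot exclude one. With a replicate block 1 member (Gstm2) was called against naive mice at week 6 in Fas-/- mice, and the other counts of members called were as without the block.

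In single cells, levels relative to those reported ran from 0.564 to 1.29 without shared barcodes, from 0.906 to 1.08 with every barcode, from 0.782 to 1.32 in mesenchymal clusters alone and from 0.63 to 1.29 after thinning cells to 3000 UMIs, and Gsta4 in the naive library was the lowest both without shared barcodes and after thinning. With 1 library per condition, differences between single-cell conditions have no replicate check.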
